A study of Homo sapiens with 3 samples.

Results

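Methylation was described at 10 imprinted regions of the human genome in Hep3B cells, a hepatocellular carcinoma line. The regions were chosen by their position (GRCh37) and carry the names SNRPN, MEST, PEG10, GRB10, PLAGL1, MEG3, PEG3, L3MBTL1, NNAT and DIRAS3. They held 1035 CpGs with reads in some library. Of these, 742 (71.7%) reached 10 reads in each of the 3 libraries and were compared, out of 2238764 such CpGs in the genome. The libraries were 1 of parental Hep3B and 1 of each of 2 SOX4 knockout lines of the same cells, called SOX4 KO #1 and SOX4 KO #2 after their labels. The lines were made with CRISPR/Cas9 and kept in puromycin. Whether each line is a single clone is not given in the sources used here, the parental library is the only control, and the edit itself was not checked in these files. The probes of TruSeq Methyl Capture EPIC were used to enrich CpG-rich DNA, bisulfite conversion and sequencing followed, and the share of reads that kept a C gives the methylation level of a CpG. Libraries held 104702738 (parental), 96987706 (KO #1) and 133170621 (KO #2) CpG reads, with medians of 27 to 36 reads over the 742 CpGs. Marker expression was not analysed here, so the cell type was not checked.

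Imprinted genes are expressed from the copy of 1 parent only, and their control regions are methylated on the copy from 1 parent, in most cases from the germ line onwards. In most of these regions the maternal copy is methylated in normal tissue, whereas at MEG3 it is the paternal copy, so that intermediate levels are the usual state. ZFP57, a zinc finger protein, binds a short methylated motif and helps to keep this methylation in early embryos. In tumour cells imprinted regions are often found with methylation gained or lost.

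To show the DNA in which the levels were read, the 150 bases before an annotated transcript start are printed for 6 of the genes, from the promoter sequences of RefSeq (GRCh38.p14), which hold 7 of the 10 genes. PEG10, PEG3 and NNAT have no entry there. The files are in another build, so each promoter was placed by its CpG spacing alone: at 14 of 25 sequences, 13 to 24 CpGs fell on CpGs listed in the files at a single offset of the chromosome, with 0 listed CpGs left over in the window, while the next best offset matched at most 15. Capitals mark the CpGs compared here.
SNRPN start site (GRCh38.p14, chr15:24954837-24954986, plus strand): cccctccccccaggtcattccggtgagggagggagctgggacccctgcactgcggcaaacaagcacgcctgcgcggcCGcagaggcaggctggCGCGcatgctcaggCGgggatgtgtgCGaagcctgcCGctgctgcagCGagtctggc
GRB10 start site (GRCh38.p14, chr7:50782897-50783046, minus strand): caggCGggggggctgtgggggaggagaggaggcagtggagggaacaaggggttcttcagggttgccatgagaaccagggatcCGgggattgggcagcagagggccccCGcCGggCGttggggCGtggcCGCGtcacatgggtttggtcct
PLAGL1 start site in the region (GRCh38.p14, chr6:144008260-144008409, minus strand): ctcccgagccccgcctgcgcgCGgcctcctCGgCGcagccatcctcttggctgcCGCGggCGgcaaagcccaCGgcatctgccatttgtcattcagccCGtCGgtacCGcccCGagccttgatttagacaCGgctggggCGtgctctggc
DIRAS3 start site (GRCh38.p14, chr1:68050628-68050777, minus strand): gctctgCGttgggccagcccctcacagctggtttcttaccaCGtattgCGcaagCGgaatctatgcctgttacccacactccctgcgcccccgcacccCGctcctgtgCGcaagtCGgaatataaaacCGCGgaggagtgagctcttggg
MEG3 start site (GRCh38.p14, chr14:100825958-100826107, plus strand): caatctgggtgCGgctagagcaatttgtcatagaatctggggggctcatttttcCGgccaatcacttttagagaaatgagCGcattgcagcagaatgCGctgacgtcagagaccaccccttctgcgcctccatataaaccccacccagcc
MEST start site in the region (GRCh38.p14, chr7:130491179-130491328, plus strand): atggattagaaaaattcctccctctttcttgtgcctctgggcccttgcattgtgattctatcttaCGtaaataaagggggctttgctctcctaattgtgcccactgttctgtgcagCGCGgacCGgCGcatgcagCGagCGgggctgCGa
MEST upstream start site (GRCh38.p14, chr7:130486197-130486346, plus strand): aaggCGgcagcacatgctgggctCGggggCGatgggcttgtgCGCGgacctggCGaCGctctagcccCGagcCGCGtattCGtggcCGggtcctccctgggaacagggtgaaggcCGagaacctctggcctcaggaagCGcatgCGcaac
The first 6 stretches were chosen because they lie in the regions (that of SNRPN starts 16 bp before its region), and the last because it shows an upstream start of MEST outside its region. Over the CpGs in capitals, levels were 27.2% (parental), 21% (KO #1) and 31.6% (KO #2) at SNRPN, with 7 CpGs. At GRB10 they were 25.4%, 16.4% and 24.1% in the same order over 8 CpGs. PLAGL1 had 19.4%, 9.46% and 2.45% over 13 CpGs. DIRAS3 was highly methylated, with 93.2%, 89.8% and 92.1% over 9 CpGs. MEG3 had 93.8%, 86.9% and 97.9% over 4 CpGs, and the MEST start inside the region had 94.5%, 98.8% and 98.1% over 8 CpGs. The upstream start of MEST, 3912 bp before the region, was nearly free of methylation, at 0.114%, 0.284% and 0.773% over the 22 CpGs of its promoter of 300 bases. The motif of ZFP57, TGCCGC on either strand, was present in 8 of the 10 placed promoters of 300 bases that overlap the regions. These promoters belong to 6 genes, and several overlap each other. Of all 35116 promoters, 16.7% held the motif. Placing was tried only for promoters with at least 8 CpGs, and the motif itself holds a CpG, so the 2 shares are not of like promoters. The motif was found 2 times in the promoters of SNRPN, PLAGL1 and DIRAS3. It was absent from that of GRB10 and from the MEST stretch shown inside the region. Other MEST promoters in the region, which overlap each other, held it 2 and 3 times.

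The regions were in different states in parental Hep3B. A level from 25% to 75% is called intermediate here. NNAT, which encodes the proteolipid neuronatin, had a mean level of 97.0% in the parental library. MEST, whose product resembles a hydrolase, had 96.4%, DIRAS3, a GTPase of the Ras family known as a growth suppressor, 95.3%, and MEG3, a long noncoding RNA with growth-suppressing activity, 91.7%. PEG10, a gene derived from a retrotransposon and often highly expressed in liver cancer, had 84.6%. GRB10, an adaptor that restrains insulin receptor signalling, had 59.5%, and PEG3, a zinc finger protein, 43.1%. L3MBTL1, a chromatin-compacting protein, had 30.7%, SNRPN, a protein of the spliceosome in the Prader-Willi region, 29.6%, and PLAGL1, a zinc finger transcription factor, 22.3%. Thus 4 regions had a mean above 90%, a level reached by 23.8% of 113184 windows of 1 kb, and 4 had an intermediate mean, as 28.2% of the windows did. Intermediate CpGs numbered 169 of 742 in the parental library (22.8%), against 15.7% of all CpGs compared. They numbered 153 (20.6%) in KO #1 and 149 (20.1%) in KO #2, against 15.4% and 16.8% of all CpGs. Set against each other, the knockout means of NNAT (96.5% ± 0.859, SD, n = 2) and MEST (96.2% ± 0.890) did not differ beyond their spread. The same held among MEG3 (84.8% ± 2.01), DIRAS3 (83.9% ± 4.79) and PEG10 (83.9% ± 0.295). Here regions are compared with each other, while differences from the parental library are given below.

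**Figure D1:**
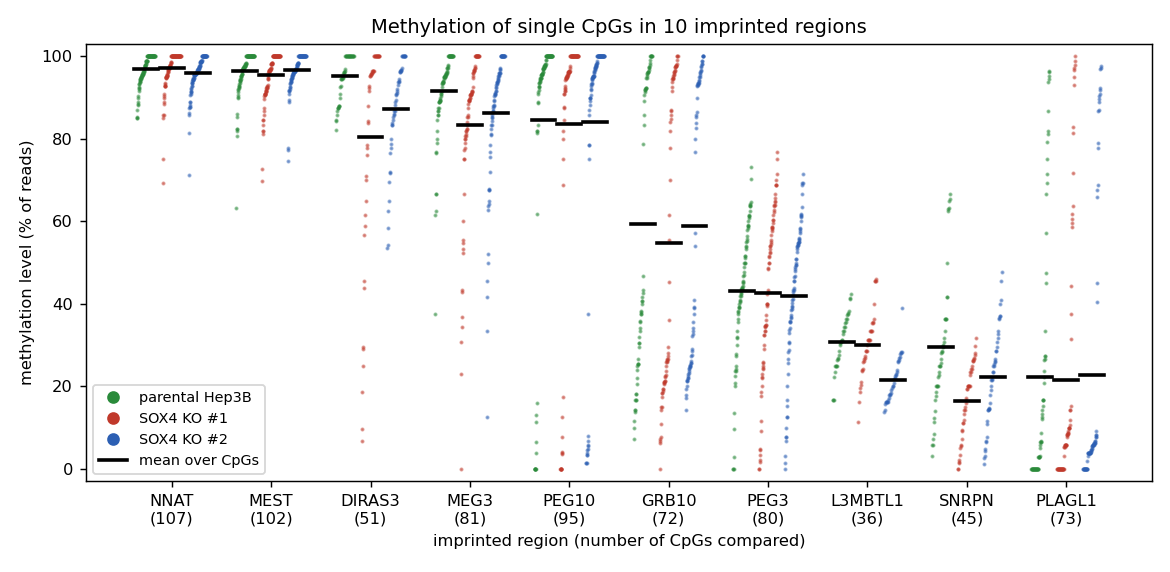
Methylation level (% of reads, vertical axis) of every CpG compared in the 10 regions (horizontal axis, ordered by the parental mean), with 1 point per CpG and library and a black bar at the mean over CpGs. NNAT and MEST sit near the top in all 3 libraries (means of 95.5% to 97.1%), PEG3 lies in the middle, and GRB10, PLAGL1 and PEG10 each show an upper and a lower cloud of CpGs.

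At NNAT (chr20:36148600-36150600) and MEST (chr7:130130100-130134400) methylation was near complete along the whole of the covered sequence. All 107 CpGs of NNAT were above 75% in the parental library, as were 105 in KO #1 and 106 in KO #2. At MEST 101 of 102 were above 75% in the parental library, 100 in KO #1 and 101 in KO #2. The NNAT means were 97.0%, 97.1% and 95.9% in the order parental, KO #1 and KO #2, and the MEST means 96.4%, 95.5% and 96.8%, so that both regions differed by at most 1.26 percentage points between any of the libraries. A further upstream promoter of MEST, 4084 bp before the region, had means of 2.24%, 0.570% and 2.05% over 13 CpGs.

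Within PEG10 (chr7:94285500-94288000), GRB10 (chr7:50848700-50851400) and PLAGL1 (chr6:144328000-144330000) the mean hides a sharp step. The split of each region that best separates its parental levels left 96.6% of their variance between the sides at PEG10, 93.9% at GRB10 and 85.5% at PLAGL1, and at most 34.6% in any other region. The parental values at a split are a description, since they set it. At PEG10, 12 CpGs up to 94285631 had a mean of 4.23% in the parental library, 4.08% in KO #1 and 4.23% in KO #2. The other 83 CpGs had means of 96.2%, 95.2% and 95.6%. The first of them, 94285643, was itself in between, at 61.9% in the parental library, 0% (0 of 11 reads) in KO #1 and 37.5% in KO #2, and the next CpG compared, 94285746, was at 100%, 100% and 93.3%. The low side of PEG10 continued before the region, where 41 CpGs of the preceding 2 kb had means of 0.150%, 0.180% and 0.389%. In all 3 libraries PEG10 thus passed from low to high methylation between 94285631 and 94285746.

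GRB10 showed the reverse order. Its first 34 CpGs, up to 50849850, had means of 94.7% (parental), 90.7% (KO #1) and 92.5% (KO #2), and the 38 CpGs from 50849911 on had 27.9%, 22.7% and 28.7%. The annotated start printed above lies on the lower side, where the 24 CpGs of its promoter had a range of 11.5% to 43.4% (parental), 10.8% to 29.5% (KO #1) and 17.1% to 39.1% (KO #2). The CpGs next to the split were uneven in the knockout lines and were not called: the last before it had 78.8%, 45.2% and 54.0%, and the first after it, with 12 to 15 reads, had 41.7%, 85.7% and 80.0%.

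PLAGL1 had low methylation over 56 CpGs up to 144329693, with means of 6.34% (parental), 4.85% (KO #1) and 4.4% (KO #2). The highest of these CpGs was at 27.3%, 37.5% and 45% in the same order. The next 17 CpGs, from 144329714 on, had means of 74.7%, 76.2% and 82.9%, and 5 CpGs after the end of the region had 96.2%, 96.1% and 97.4%. In the promoter of PLAGL1 inside the region, 20 CpGs had a mean of 15.1% with a range of 3.03% to 27.3% in the parental library. KO #1 had 8.86% there (0% to 15.2%) and KO #2 had 2.88% (0% to 6.06%), so the parental library was the highest, but no CpG on the low side was called. Another annotated start of PLAGL1, 55736 bp beyond the end of the region, had means of 1.15%, 1.88% and 1.29% over 16 CpGs.

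**Figure D2:**
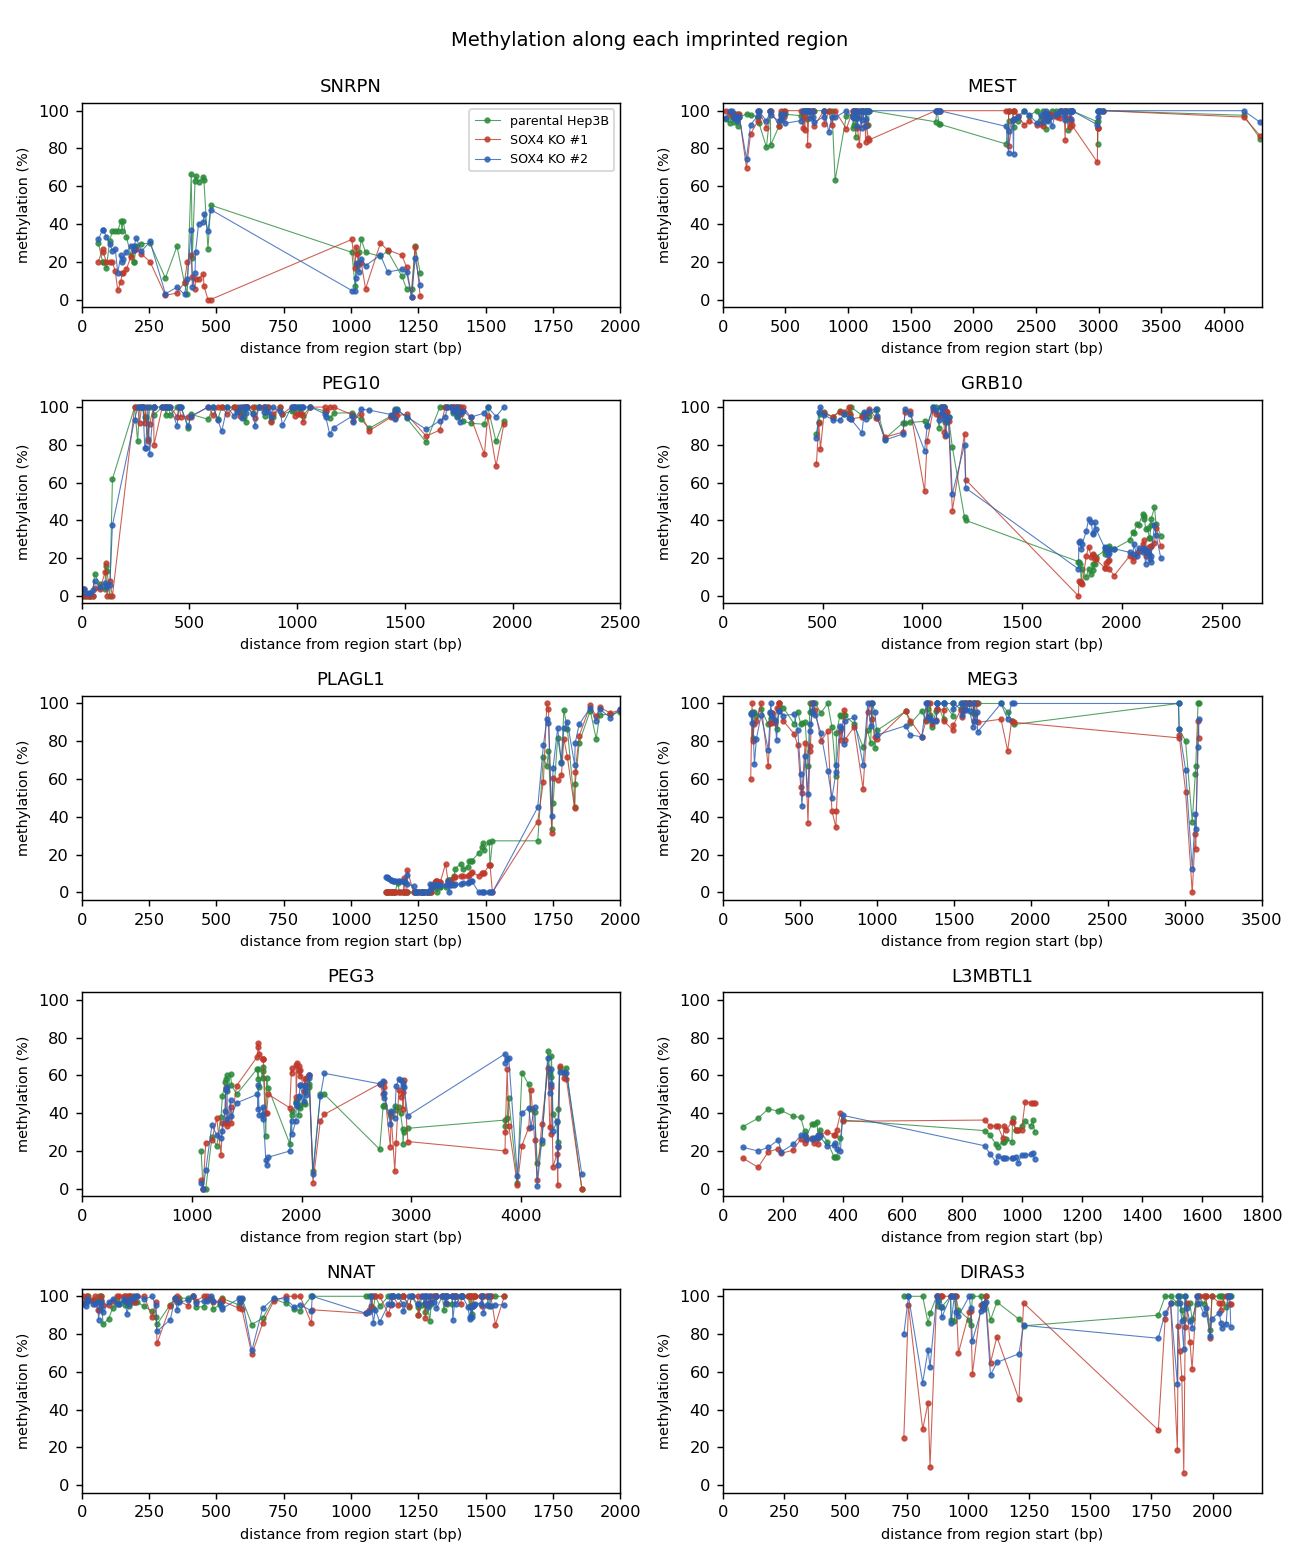
Methylation level (%, vertical axis) of each CpG against its distance from the start of the region in bp (horizontal axis), in 10 panels with 1 line per library. Steps are seen at PEG10, GRB10 and PLAGL1 in all 3 libraries, NNAT and MEST stay high throughout, and separate dips of KO #1 to as low as 6.67% are seen in DIRAS3.

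PEG3 (chr19:57348400-57353300), L3MBTL1 (chr20:42142300-42144100) and SNRPN (chr15:25200000-25202000) were intermediate or low along their covered length. At PEG3 68 of 80 CpGs (85%) were intermediate in the parental library, 62 (77.5%) in KO #1 and 67 (83.8%) in KO #2. Its mean was 43.1% in the parental library and 42.3% ± 0.493 (SD, n = 2) in the knockout lines, a difference of -0.791 points. Levels within PEG3 varied from CpG to CpG, with a range of 0% to 73.1% and an SD over CpGs of 16.6 points in the parental library. At L3MBTL1 the range was narrower, 16.7% to 42.3%, and 31 of 36 CpGs (86.1%) were intermediate in the parental library, 27 (75%) in KO #1 and 10 (27.8%) in KO #2. At SNRPN 27 of 45 CpGs (60.0%) were intermediate in the parental library, 10 (22.2%) in KO #1 and 21 (46.7%) in KO #2, and 0 were above 75% in any library. The 2 kb on either side of L3MBTL1 held few CpGs, 4 before it with means of 91.9% to 92.5% and 1 after it at 94.4% to 97.7%. Counts per CpG do not keep which CpGs were read on the same molecule, so an intermediate level from 1 methylated copy and one from a mixture of cells cannot be told apart.

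The study asked how SOX4 acts on gene expression through DNA methylation, and the comparison of interest is therefore that of the knockout lines with parental Hep3B. All 10 regions had a lower mean in the knockout lines than in the parental library, with differences from -11.4 to -0.195 points and a median of -1.72, and 68.1% of all 1 kb windows were lower as well, with a median of -1.47. The sign rested on the setting at MEST, NNAT and PLAGL1, where alternatives gave small or opposite differences. None of the 10 regions differed by 25 points or more, a size reached by 1.76% of windows downwards and 0.21% upwards. For KO #1 alone 4.15% of windows were lower and 0.416% higher by that size, and for KO #2 alone 0.628% and 0.0901%, against 0 of 10 regions in either line. The units are unlike: regions are 1800 to 4900 bp long with at least 36 CpGs, and windows are 1 kb with at least 5. At such shares of windows, 0 of 10 regions says little. In 5 of 10 regions (SNRPN, PEG10, MEG3, PEG3 and DIRAS3) the difference was larger than that between KO #1 and KO #2. The differences from parental depended on the setting. When 20 reads were required they shrank to -0.177 points at PEG10 and -2.65 at SNRPN. On the complementary strand alone the difference shrank to -0.208 at PEG3. Each is smaller than the difference between the lines at the main setting. The difference between the lines is not given at the other settings, so the count was not determined there. No group test was run, since there was 1 parental library.

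Single CpGs were tested between each pair of libraries by Fisher's exact test (2-sided, Benjamini-Hochberg over all 2238764 CpGs) and called at an adjusted p under 0.05 with a difference of at least 25 points. These tests compare libraries, not conditions. In KO #1, 22 of the 742 CpGs were lower than in the parental library (2.96%, against 4.46% of all CpGs tested) and 1 was higher (0.135%, against 0.599%). At an unadjusted p under 0.05, 55 were lower in KO #1 and 13 higher. The share of all CpGs at that threshold was not determined, so such counts, here and below, cannot be set against the genome. In KO #2, 3 were lower (0.404%, against 0.713%) and 0 were higher (0.0831% of all CpGs), with 41 lower and 15 higher at an unadjusted p under 0.05. In both lines 3 CpGs were lower (0.404%, against 0.6%) and 0 were higher (0.0581%), and both lines share the parental library. Between the lines, 3 CpGs were lower in KO #1 than in KO #2 (1.07% of all CpGs) and 0 were higher (0.184%), with 39 and 15 at an unadjusted p under 0.05. The members were thus called no more often than the genome as a whole, and 18 of the 22 lower CpGs of KO #1 lay in DIRAS3, PEG3 and SNRPN.

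**Figure D3:**
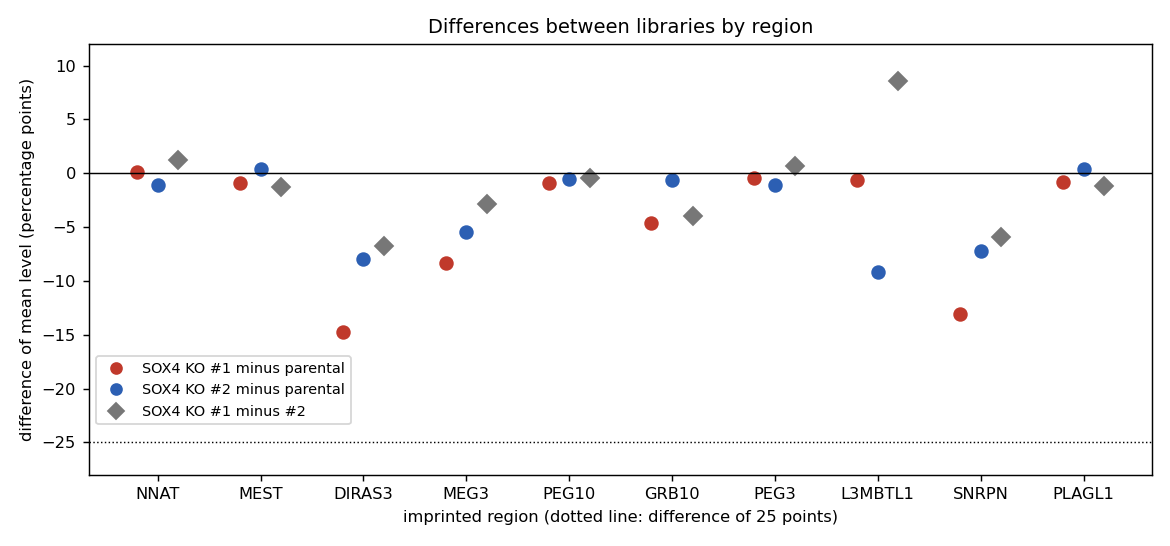
Difference of the mean level of each region between libraries in percentage points (vertical axis) for KO #1 minus parental (red), KO #2 minus parental (blue) and KO #1 minus KO #2 (grey diamonds), with 0 as a solid and -25 as a dotted line. DIRAS3 and SNRPN were lowest against parental in KO #1 (-14.8 and -13.1 points), while L3MBTL1 differed more in KO #2 (-9.18 points, against -0.596 in KO #1).

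DIRAS3 (chr1:68515400-68517600) had the largest difference. Its mean over 51 CpGs was 95.3% in the parental library, 80.6% in KO #1 and 87.3% in KO #2, and the knockout mean of 83.9% ± 4.79 (SD, n = 2) differed from parental by -11.4 points, while the lines differed by 6.77 points. Parental CpGs ran from 82.1% to 100%, those of KO #1 from 6.67% to 100% and those of KO #2 from 53.6% to 100%, so the difference was uneven along the region. In KO #1, 9 of 51 CpGs were called lower (17.6%, against 4.46% of all CpGs). Several of them stood close together, as did 68517256, 68517267, 68517274 and 68517282, so they share reads and are not separate counts. In KO #2, 2 were called lower (3.92%, against 0.713%), both of which were also called in KO #1. The first of these 2, 68516216, had 18 of 18 parental reads methylated (100%, exact 95% interval 81.5% to 100%). By Fisher's exact test it was lower in both lines, with 8 of 27 in KO #1 (29.6%, 13.8% to 50.2%, adjusted p = 7.18e-05) and 19 of 35 in KO #2 (54.3%, 36.6% to 71.2%, adjusted p = 0.0361). At 68517256 the reads were 27 of 28 in the parental library, 6 of 32 in KO #1 and 15 of 28 in KO #2. The lines also differed from each other at 2 CpGs: at 68516246, methylated reads were 20 of 22 in the parental library, 3 of 31 in KO #1 and 25 of 40 in KO #2, and at 68517282 they were 22 of 25, 2 of 30 and 23 of 32. The promoter of DIRAS3 printed in part above had means of 94.6% (parental), 91.5% (KO #1) and 90.3% (KO #2) over its 19 CpGs. Its lowest CpG was at 84.6%, 58.8% and 58.3% in the same order, and none of the 19 was called. Read dosage, the share of a library's CpG reads that fell in the region relative to parental, was 1.34 in KO #1 and 1.13 in KO #2. It was 1.02 and 1.00 over the surrounding 5 Mb, and 1.13 and 1.07 over chromosome 1 as a whole. Its part in the result was not tested.

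SNRPN had means of 29.6% (parental), 16.5% (KO #1) and 22.4% (KO #2), and the knockout mean of 19.4% ± 4.17 differed from parental by -10.1 points, more than the -5.89 points between KO #1 and KO #2. The called CpGs stood close together: all 4 that were called in KO #1 lay within 33 bp, so they share reads. Lower levels were not confined to them, since 30 of 45 CpGs were lower and 15 higher than parental in each line. At 25200421, 17 of 27 parental reads were methylated (63.0%, 42.4% to 80.6%). By Fisher's exact test this CpG was called in both lines, with 1 of 18 in KO #1 (5.56%, 0.141% to 27.3%, adjusted p = 0.00381) and 4 of 28 in KO #2 (14.3%, 4.03% to 32.7%, adjusted p = 0.0310). At 25200454 the methylated reads were 12 of 19 in the parental library, 1 of 14 in KO #1 and 10 of 22 in KO #2. The 31 CpGs up to 25200479 had means of 34.4% (parental), 15.2% (KO #1) and 26.3% (KO #2). The 14 CpGs from 25201003 on had 18.9%, 19.5% and 13.8%, and the parental levels set this split. When 20 reads were required, 19 CpGs remained and the difference of the knockout mean shrank to -2.65 points. Read dosage in the region was 1.38 in KO #1 and 1.32 in KO #2, and over the surrounding 5 Mb it was 1.25 and 1.13, so that reads from this part of chromosome 15 were more frequent in both lines. Its part in the result was not tested.

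MEG3 (chr14:101290500-101294000) had means of 91.7% (parental), 83.3% (KO #1) and 86.2% (KO #2), a difference of -6.91 points for the knockout mean, larger than the 2.84 points between the lines. No CpG of MEG3 was called by Fisher's exact test, with 9 lower and 1 higher in KO #1 and 4 lower and 0 higher in KO #2 at an unadjusted p under 0.05. The last 6 CpGs, from 101293506 on, a side chosen by its low parental levels, had 74.4%, 46.7% and 53.5%. When 20 reads were required, 40 CpGs remained and the difference was -2.98 points. Read dosage was 1.04 in KO #1 and 0.898 in KO #2, and its part in the result was not tested.

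At L3MBTL1 the difference of the regional mean lay mainly in KO #2. In KO #1, 17 of 36 CpGs were lower and 17 higher than in the parental library. By Fisher's exact test at an unadjusted p under 0.05, 4 were lower in KO #1 and 0 higher. The means were 30.7% (parental), 30.1% (KO #1) and 21.5% (KO #2), the knockout mean was 25.8% ± 6.07, and the lines differed by 8.59 points, against a difference from parental of -4.89 points. That difference depended on the setting, with -10.5 points when 20 reads were required, -9.00 when CpGs were weighted by reads and -8.28 on the complementary strand alone. Without KO #1 the difference was -9.18 points and without KO #2 it was -0.596. At 42142418, the single CpG called (in KO #1), 28 of 75 parental reads were methylated, 6 of 53 in KO #1 and 21 of 105 in KO #2. Read dosage was 0.919 in KO #1 and 1.21 in KO #2, and its part in the result was not tested. An upstream start of L3MBTL1, 5963 bp before the region, had means of 24.0%, 7.47% and 14.1% over 13 CpGs.

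At PEG3 5 of 80 CpGs were called lower in KO #1 (6.25%, near the 4.46% of all CpGs). At 57352404, 59 of 96 parental reads were methylated (61.5%, 51.0% to 71.2%), 19 of 83 in KO #1 (22.9%, 14.4% to 33.4%) and 39 of 97 in KO #2 (40.2%, 30.4% to 50.7%), and by Fisher's exact test the adjusted p was 1.74e-05 in KO #1 and 0.169 in KO #2. The remaining calls were single CpGs. At PLAGL1 144329727, in the methylated side, 10 of 15 parental reads, 34 of 34 in KO #1 and 34 of 37 in KO #2 were methylated, the only CpG of the 742 called higher in KO #1. At GRB10 50849711 the reads were 61 of 66, 36 of 65 and 60 of 78 in the same order. PEG10 94285643, the first CpG after its step, had 13 of 21, 0 of 11 (exact 95% interval 0% to 28.5%) and 12 of 32. MEST 130130289 had 57 of 58, 23 of 33 and 47 of 63, with a difference of 28.6 points below parental in KO #1 and 23.7 in KO #2, just under the size called. Read dosage at PEG10 was 0.755 in KO #1 and 0.857 in KO #2, and its part in the result was not tested. At NNAT 0 CpGs were called by Fisher's exact test, with 1 lower in KO #1 and 3 lower in KO #2 at an unadjusted p under 0.05.

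Highly methylated CpGs of these regions were also set beside those of the genome. Of the 460 member CpGs above 75% in the parental library, 2.39% were called lower in KO #1, against 6.04% of the 799101 such CpGs in the genome. Their means were 95.9% (parental), 92.5% (KO #1) and 93.8% (KO #2), against 93.4%, 87.3% and 89.7% in the genome. Choosing CpGs by the parental level lowers the other values in both sets, and the difference between the sets was not tested.

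Other imprinted regions outside these 10 were taken from a list of 20, whose intervals were entered from general knowledge, and 14 had at least 5 CpGs compared (556 in all). Their parental means were as diverse: 7 were above 75%, 2 were intermediate and 5 were below 25%. In the knockout lines 13 of 14 were lower, with a median of -2.59 points, and 0 differed by 25 points. Fisher's exact test called 6 CpGs lower (1.08%, against 4.46% of all CpGs) and 2 higher (0.360%, against 0.599%) in KO #1, and 2 lower (0.360%, against 0.713%) and 0 higher in KO #2. The largest difference was at the germline control region between DLK1 and MEG3 on chromosome 14, where 9 CpGs had means of 98.8% (parental), 86.6% (KO #1) and 81.5% (KO #2), a difference of -14.8 points, so that both imprinted regions at MEG3 were lower. GPR1-AS differed by -9.41 points, MKRN3 by -9.06 and NDN by -8.56, the last 2 being neighbours of SNRPN on chromosome 15. INPP5F was lower in KO #1 only, at 94.2%, 79.7% and 95.9%. The single region that was higher, NAP1L5, differed by 0.415 points.

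**Figure D4:**
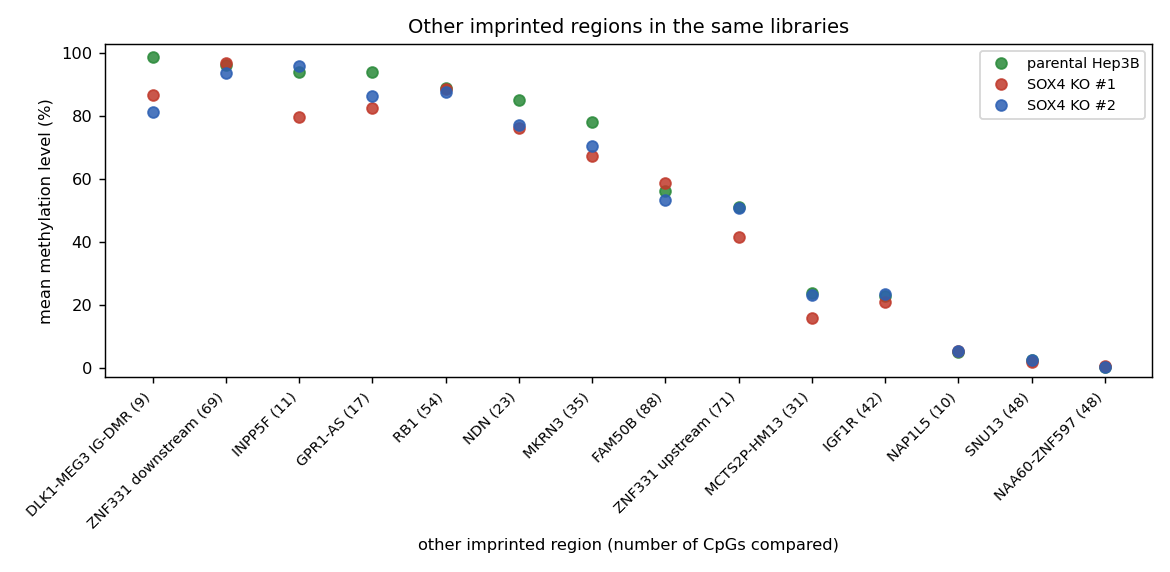
Mean methylation level (%, vertical axis) of 14 other imprinted regions (horizontal axis, with the number of CpGs compared in parentheses), 1 point per library. The levels span almost the whole scale in parental Hep3B, from 98.8% at the control region between DLK1 and MEG3 to 0.452% at NAA60-ZNF597, and the 3 libraries lie close together at the low end.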

How the data were processed

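DNA of parental Hep3B cells and 2 SOX4 knockout lines was captured with TruSeq Methyl Capture EPIC probes, converted with bisulfite and sequenced (1 library each). The authors deposited 1 table per library with the counts of all, context and methylated reads per cytosine and strand, and the methylation level as a fraction of context reads. This fraction equalled methylated over context reads to within 5e-07. Builds named in the submitters' processing notes are GRCh37 and hg19, while the aligner and caller are not given in the sources used here. Complementary-strand rows held 86.7% to 87.0% of CpG reads.

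Counts of both strands were summed per CpG, named by its G on the forward strand, and CpGs with at least 10 context reads in all 3 libraries were kept. The level of a region is the mean over its CpGs, with no test. Single CpGs were tested by Fisher's exact test (2-sided) with Benjamini-Hochberg adjustment over 2238764 CpGs, tested on simulated data beforehand, and called at an adjusted p under 0.05 and 25 points. Windows of 1 kb with at least 5 CpGs gave the background. Intervals are exact (Clopper-Pearson, 95%) and cover counting error only, since PCR copies are not independent molecules. Median depth over the 742 CpGs was 28 (parental), 27 (KO #1) and 36 (KO #2) reads, so a single CpG resolves large differences only. The SD over the 2 knockout lines is the spread between 2 separately labelled lines with 1 library each, and holds technical spread too. Named CpGs were, per region, the one with the largest smaller-of-2 difference among CpGs called in both lines, or else in 1. Further CpGs of DIRAS3 and SNRPN were named after their values were seen. The regions, the list of other imprinted regions and the tests were chosen with earlier results of these data known. Alternatives were other coverage minima, adjusted p and difference thresholds, thinning to equal depth, 1 strand, read-weighted means and leaving out each knockout line. Exon and intron positions were not used here, since the annotation given is of GRCh38.p14. Python 3.11.15 with numpy 2.4.6, pandas 2.3.3, scipy 1.17.1, numba 0.67.0 and matplotlib 3.10.9 was used.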

Additional observations from a re-analysis of the deposited data

How the results depend on the processing

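Of 112 alternative values of 18 results, 28 moved by more than the SD between the knockout lines or, for counts, by over 1.5 times, and 84 did not. At L3MBTL1 and GRB10, where that SD was 6.07 and 2.84 points, the alternatives below lie within it and differ by over 1.5 times from the reported values. Of 60 alternative region differences, 6 changed sign (3 at PLAGL1, 2 at MEST, 1 at NNAT), and 7 regions kept their sign throughout. No paired analysis was possible because parental cells have 1 library here. The causes of these changes were not tested.

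CpGs lower in both lines numbered 3, but 0 at an adjusted p of 0.01, 0 at 50 points, 0 after thinning and 1 at a minimum of 20 reads. Taking 1 line alone gave 3 to 22 lower and 0 to 1 higher. CpGs higher in KO #1 (1) became 0 at an adjusted p of 0.01, at 50 points, at a minimum of 20 reads and after thinning, and 2 at 10 points. Those lower in KO #1 (22) became 11 at an adjusted p of 0.01 and 11 at 50 points. Those lower in KO #2 (3) became 0 at an adjusted p of 0.01, at 50 points and after thinning, and 5 at 10 points. CpGs lower in KO #1 than in KO #2 (3) became 1 after thinning.

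For the knockout mean minus parental, a minimum of 20 reads gave -2.65 points at SNRPN, -2.98 at MEG3, -0.177 at PEG10, -1.24 at PLAGL1 and -10.5 at L3MBTL1. A minimum of 5 reads gave -0.0549 at PEG10 and -3.30 at PEG3. Weighting by reads gave -2.84 at PEG10, -2.37 at PEG3, 4.66 at PLAGL1 and -9.00 at L3MBTL1. The complementary strand alone gave -0.208 at PEG3 and -8.28 at L3MBTL1. Leaving out 1 line gave -9.18 to -0.596 at L3MBTL1, -4.65 to -0.639 at GRB10 and -14.8 to -8.01 at DIRAS3.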

Other observations

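Few CpGs of the sequence within 2 kb of the regions were covered. After the end of MEG3, 4 CpGs had means of 89.6% (parental), 77.7% (KO #1) and 72.8% (KO #2), lower in both lines as in the region itself. Before SNRPN, 4 CpGs had 68.2%, 73.0% and 61.3%. Before PEG3, 6 CpGs had 61.0%, 37.5% and 62.9%, so that KO #1 alone was lower there, and after PEG3, 3 CpGs had 33.5%, 39.5% and 19.2%. These differences were not tested.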
